A study of Mus musculus with 12 samples.

Results

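Collagen chains were taken as every protein-coding gene whose symbol is Col, a type number, a and a chain number, which gave 44 genes among the 55401 genes counted in sorted satellite cells, the stem cells of skeletal muscle. The RNA came from *Pax7*-ZsGreen+ cells of mouse hind limb muscle, a reporter that marks cells using the *Pax7* promoter. All mice were adults of 3 to 4 months, were CXCR4 FL/FL and received tamoxifen at 80 mg/kg on 5 days. The *Cxcr4* KO mice also carried Pax7-creERT2, so that deletion could occur only in cells using *Pax7*, whereas the WT mice carried no cre, so that presence of the cre and loss of *Cxcr4* cannot be told apart. Quiescent cells were taken directly after sorting (4 WT and 4 KO libraries), and activated cells after culture overnight in myogenic growth medium (2 WT and 2 KO libraries).

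Collagens are trimers of chains in which glycine recurs in the Gly-X-Y triplets of a long repeat, so that the chains can wind around each other as a triple helix. Fibrillar collagens build the cables of tendon and of the connective tissue around muscle, type IV collagen builds the sheet of the basement membrane that covers the satellite cell, type VI forms beaded filaments beside it, and FACIT collagens decorate fibrils. Satellite cells are known to make collagens of their own while quiescent, and type V collagen signals to them through the calcitonin receptor.

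The repeat is shown for 6 of the 10 most abundant chains, from 4 structural classes, because its longest run set the fibrillar class (216 to 344 triplets) apart from the other classes (23 to 113 triplets). Each line gives 10 Gly-X-Y triplets at the start of the longest uninterrupted repeat, read on the coding strand from GENCODE coding sequences on GRCm38, with glycine codons in capitals.
Col1a1: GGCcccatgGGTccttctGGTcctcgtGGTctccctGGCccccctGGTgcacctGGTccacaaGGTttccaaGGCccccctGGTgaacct
Col3a1: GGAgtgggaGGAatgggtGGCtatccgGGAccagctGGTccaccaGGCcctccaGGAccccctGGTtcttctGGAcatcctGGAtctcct
Col5a3: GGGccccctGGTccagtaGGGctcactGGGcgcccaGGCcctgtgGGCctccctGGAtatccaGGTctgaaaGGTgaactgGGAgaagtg
Col4a1: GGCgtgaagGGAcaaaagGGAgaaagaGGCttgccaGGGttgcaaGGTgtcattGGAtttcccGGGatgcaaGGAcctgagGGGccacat
Col6a1: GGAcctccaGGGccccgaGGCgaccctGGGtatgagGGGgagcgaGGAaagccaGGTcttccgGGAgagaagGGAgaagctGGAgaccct
Col15a1: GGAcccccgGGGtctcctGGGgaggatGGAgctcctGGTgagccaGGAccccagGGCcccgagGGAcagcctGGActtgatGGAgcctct

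In *Col1a1*, *Col3a1* and *Col5a3* this repeat ran without a break for 338, 344 and 337 triplets. Of the 11 fibrillar chains, 9 had a run of more than 300 triplets, and *Col24a1* (216) and *Col27a1* (217) had shorter ones. The longest run of *Col4a1* was 40 triplets, with 23 separate runs along its 1669 codons, and that of *Col6a1* was 87 triplets in a chain of 1025 codons. *Col15a1*, whose C-terminal fragment is released from a multiplexin of vessel and muscle basement membranes, had runs of at most 30 triplets.

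The promoters of 4 of the 10 most abundant chains, each of which fell with activation in both genotypes, are given for the 250 bases before the RefSeq start on GRCm38.p6, 5′ to 3′ on the strand of the gene. They are the chains of that kind for which no RefSeq window overlapped an annotated exon. Capitals mark matches on either strand to the CCAAT box, to the GC box GGGCGG, to the TATA box written as TATAAA, or to the Notch pathway motif GTGGGAA.
Col3a1, chr1:45311288-45311537, plus strand: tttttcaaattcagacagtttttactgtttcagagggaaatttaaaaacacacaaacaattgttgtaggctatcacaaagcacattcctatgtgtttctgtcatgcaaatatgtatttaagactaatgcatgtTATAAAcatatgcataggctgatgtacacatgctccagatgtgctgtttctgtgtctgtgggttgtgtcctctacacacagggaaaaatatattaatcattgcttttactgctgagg
Col5a1, chr2:27886175-27886424, plus strand: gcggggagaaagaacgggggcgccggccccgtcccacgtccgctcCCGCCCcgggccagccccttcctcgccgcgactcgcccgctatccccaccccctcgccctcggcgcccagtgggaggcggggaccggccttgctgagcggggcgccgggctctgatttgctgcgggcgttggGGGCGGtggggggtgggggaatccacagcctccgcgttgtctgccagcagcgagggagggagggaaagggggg
Col5a3, chr9:20815068-20815317, minus strand: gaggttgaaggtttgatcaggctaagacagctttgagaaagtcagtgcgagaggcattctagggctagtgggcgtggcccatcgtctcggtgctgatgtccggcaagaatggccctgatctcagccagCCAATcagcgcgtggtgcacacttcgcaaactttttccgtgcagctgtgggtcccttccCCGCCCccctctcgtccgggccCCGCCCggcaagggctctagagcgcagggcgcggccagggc
Col15a1, chr4:47207762-47208011, plus strand: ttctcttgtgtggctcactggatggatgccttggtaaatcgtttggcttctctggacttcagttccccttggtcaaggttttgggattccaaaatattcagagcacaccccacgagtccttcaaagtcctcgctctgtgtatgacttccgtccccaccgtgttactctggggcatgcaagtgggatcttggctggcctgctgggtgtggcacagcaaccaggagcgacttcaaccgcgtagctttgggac

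The windows differed in their letters. The *Col5a1* window had 2 matches to GGGCGG, the *Col5a3* window had 2 to GGGCGG and 1 to CCAAT, the *Col3a1* window had 1 to TATAAA, and the *Col15a1* window had none. Over the 38 RefSeq promoter windows of 35 collagen genes (250 bases before to 50 after the start), GGGCGG was found in 60.5%, compared with 35.7% of all 32851 such windows. CCAAT was found in 34.2% against 37.4%, TATAAA in 13.2% against 13.6%, and GTGGGAA in 5.26% against 6.38%. A match is a run of letters and was not tested as a binding site.

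Libraries held 12775593 to 23717013 counted reads in the quiescent state and 3172164 to 5427280 in the activated state, so that low collagens were measured less precisely after culture. Each level is a CPM value, the count of a gene per library size after TMM adjustment. In activated libraries 11.5 to 40.3% of reads fell on a single gene annotated as CT010467.1, against 0.295 to 0.807% in quiescent libraries. *Xist* was at 1.2 to 7.17 CPM and 4 Y-linked genes together at 358 to 660 CPM in quiescent libraries, but at 451 to 817 and 0 to 2.51 CPM in activated libraries, so sex and state cannot be told apart. *Cxcr4* was at 61.2, 59.1, 89.6 and 112 CPM in quiescent WT and at 17.6, 21.2, 12.5 and 17.1 CPM in quiescent KO libraries (log2 fold change -2.24, SE 0.31, edgeR adjusted p = 0.00477). In activated cells it was at 33.3 and 14.4 CPM in WT and at 5.39 and 13.7 CPM in KO libraries (log2 fold change -1.35, SE 0.46, edgeR adjusted p = 0.381). All 12 satellite cell markers were counted in every quiescent library, but so were all 10 endothelial, 5 glial and 7 blood markers looked at. Detection alone therefore does not test the satellite cell label. *Pax7* was at 181 to 482 CPM in quiescent libraries and fell to 71.2 to 129 CPM after culture.

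Collagen RNA in quiescent satellite cells was concentrated in a few chains. The 10 highest chains by mean level, *Col3a1*, *Col1a1*, *Col4a1*, *Col6a1*, *Col4a2*, *Col5a3*, *Col1a2*, *Col6a2*, *Col15a1* and *Col5a1*, took 64.8 to 87.4% of all collagen CPM in a library. At the other end, 16 of the 44 chains stayed below 10 CPM in every library, and 20 reached at least 10 CPM in every quiescent library. *Col10a1*, the chain of hypertrophic cartilage, had 0 counts in 7 libraries and at most 11 in any other, and was the only chain not tested.

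**Figure D1:**
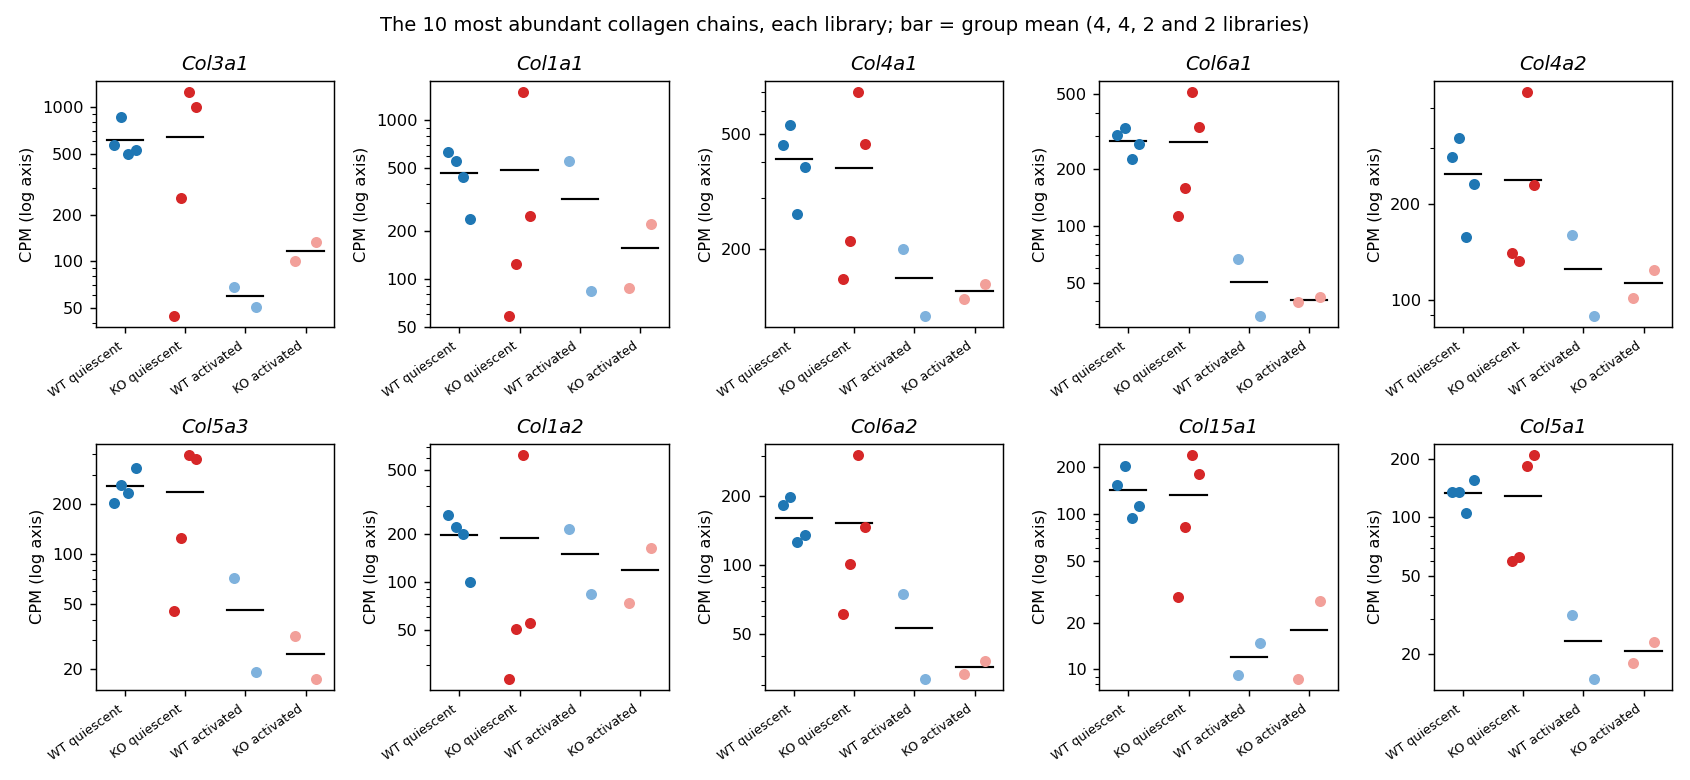
Level of the 10 highest collagen chains in each library. Each point is 1 library, the vertical axis is CPM on a log scale, colours separate the 4 groups and bars give group means. Quiescent KO libraries spread more widely than quiescent WT libraries, for example from 44.2 to 1249 CPM against 493 to 866 CPM for *Col3a1*.

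Among fibrillar chains, *Col3a1*, the homotrimeric collagen of soft tissues, was at 566, 866, 493 and 528 CPM in the quiescent WT libraries and at 44.2, 258, 1249 and 1001 CPM in the quiescent KO libraries. In activated cells it was at 68.5 and 50.8 CPM in WT and at 101 and 134 CPM in KO. All quiescent WT values thus lay above all activated values, while 1 quiescent KO library lay below them all.

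*Col1a1*, which encodes the major chain of type I collagen, was at 628, 555, 437 and 240 CPM in quiescent WT and at 58.6, 124, 1507 and 248 CPM in quiescent KO libraries. After culture it was at 558 and 84.5 CPM in WT and at 88.4 and 224 CPM in KO. The 2 activated WT libraries differed from each other more than the 4 quiescent WT libraries did, and quiescent and activated values overlapped. *Col1a2*, its partner chain, had the same high libraries, at 264, 220, 199 and 100 CPM in quiescent WT, 24.7, 50.5, 625 and 55 CPM in quiescent KO, 215 and 83.2 CPM in activated WT and 74 and 164 CPM in activated KO.

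*Col5a3* and *Col5a1* encode type V chains, which sit in the core of heterotypic fibrils. *Col5a3* was at 203, 262, 235 and 332 CPM in quiescent WT and at 45, 124, 398 and 378 CPM in quiescent KO, against 71.7 and 19.3 CPM in activated WT and 31.6 and 17.6 CPM in activated KO. *Col5a1* was at 134, 135, 106 and 155 CPM in quiescent WT and at 59.8, 62.8, 183 and 209 CPM in quiescent KO, against 31.4 and 14.9 CPM and 18 and 23 CPM after culture. For *Col5a1* every activated library was below every quiescent library, whereas for *Col5a3* quiescent KO replicate 1 fell below activated WT replicate 1.

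The basement membrane pair *Col4a1* and *Col4a2* encodes the common type IV trimer, and the genes lie head to head on chromosome 8, with *Col4a1* at chr8:11198423-11312826 on the minus strand and *Col4a2* at chr8:11312805-11449287 on the plus strand (GRCm38). *Col4a1* was at 459, 537, 265 and 387 CPM in quiescent WT, 158, 214, 699 and 461 CPM in quiescent KO, 201 and 118 CPM in activated WT and 135 and 151 CPM in activated KO. *Col4a2* was at 281, 322, 158 and 232 CPM, 141, 133, 450 and 230 CPM, 161 and 89.3 CPM, and 102 and 125 CPM in the same order. Both were lower on average after culture, and both overlapped between the states. The annotated spans overlap at the starts, and the strand setting of the counting is not given in the sources used here, so reads from the overlap could be assigned to either gene.

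*Col6a1* and *Col6a2*, whose chains join a larger type VI chain in microfibrils, lie in tandem on chromosome 10. *Col6a1* was at 302, 331, 228 and 271 CPM in quiescent WT, 113, 159, 513 and 334 CPM in quiescent KO, 67.1 and 33.3 CPM in activated WT and 39.3 and 41.7 CPM in activated KO, with no overlap between states. *Col6a2* was at 183, 198, 126 and 136 CPM, 61.4, 102, 303 and 147 CPM, 74.8 and 32 CPM, and 33.4 and 38.1 CPM in the same order, with 1 quiescent KO library below 1 activated WT library.

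*Col15a1* did not overlap between the states. It was at 155, 204, 94.8 and 113 CPM in quiescent WT, 29.1, 83, 240 and 180 CPM in quiescent KO, 9.15 and 14.9 CPM in activated WT and 8.73 and 27.4 CPM in activated KO. The highest activated library was just under the lowest quiescent library.

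Set per kilobase of exon, so that chains of different length can be compared, the order of mean levels in quiescent WT libraries was *Col1a1* (70.9 ± 25.8 CPM per kb), *Col6a1* (64.6 ± 10), *Col3a1* (62.5 ± 17.4), *Col4a1* (55.2 ± 15.5), *Col5a3* (37.9), *Col4a2* (37.5 ± 10.6) and *Col15a1* (22.3), with errors as SD and n = 4. The first 4 did not differ beyond their spread. The place of *Col1a2* (15.8 ± 5.58 CPM per kb, SD, n = 4) is uncertain, since its annotated exons sum to 12426 bases. The deposited FPKM values of the groups were 0.952 to 1.03 times these levels over 86 values compared.

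The quiescent libraries differed from each other in a way that most chains shared. Quiescent KO replicate 1 had the lowest value of the 8 quiescent libraries for 19 of 44 chains and for 9 of the 10 highest chains, and quiescent KO replicate 3 had the highest value for 22 of 44 and for 9 of the 10 highest. The highest quiescent library exceeded the lowest by 28.3-fold for *Col3a1*, 25.7-fold for *Col1a1* and 25.3-fold for *Col1a2*, by 8.24-fold for *Col15a1*, and by 4.42-fold for *Col4a1* and 3.5-fold for *Col5a1*. Summed over all 44 chains, collagen RNA was at 3866, 4299, 2871 and 3041 CPM in quiescent WT and at 1135, 1753, 7053 and 3875 CPM in quiescent KO. After culture the sums were 1827 and 691 CPM in WT and 757 and 1154 CPM in KO. The sum of 6 tenocyte markers (*Scx*, *Tnmd*, *Mkx*, *Thbs4*, *Fmod* and *Kera*) was 743, 452, 418 and 201 CPM in quiescent WT, 227, 163, 892 and 160 CPM in quiescent KO, 546 and 134 CPM in activated WT and 109 and 137 CPM in activated KO. In each of the 4 groups, the library with the highest tenocyte sum was also that with the highest *Col1a1* and *Col1a2*. The part of tenocyte RNA in these values was not tested. All 6 tenocyte markers had counts in every library but quiescent KO replicate 1, where *Kera* was at 0.

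**Figure D2:**
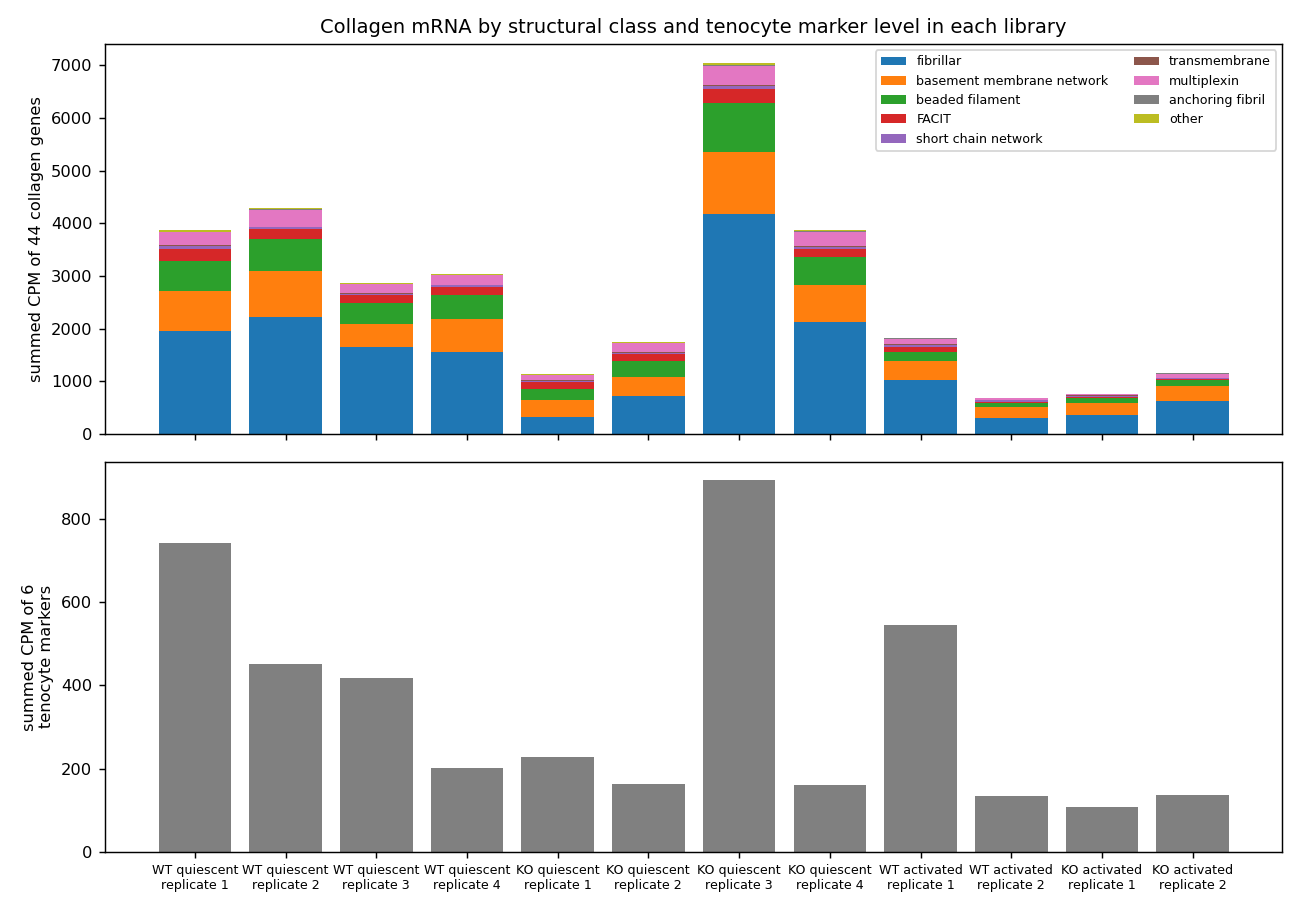
Summed level of the 44 collagen chains (upper panel) and of 6 tenocyte markers (lower panel) in each library. Bars are libraries, stacked by structural class in the upper panel, and the vertical axes are summed CPM from 0. Quiescent KO libraries run from 1135 to 7053 CPM of collagen, and the library at 7053 CPM has the highest tenocyte sum, 892 CPM.

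Markers listed for other cell types that a muscle digest holds also moved with state. Summed levels were 795 to 1199 CPM in quiescent and 253 to 436 CPM in activated libraries for 14 fibroadipogenic progenitor and fibroblast markers, 1490 to 2762 and 223 to 424 CPM for 8 pericyte and smooth muscle markers, 341 to 1788 and 152 to 836 CPM for 10 endothelial markers, 169 to 394 and 30.7 to 137 CPM for 5 glial markers, and 72.9 to 284 and 32 to 59.8 CPM for 7 blood markers. The 8 muscle fibre markers went the other way, from 255 to 864 CPM to 5758 to 14098 CPM. The sum of each of these non-muscle lists covered a lower range after culture, with overlap between the states for the endothelial markers, and their part in the changes of the collagens with state was not tested. The fibroadipogenic progenitor and fibroblast markers went both ways: of 14, none was called higher and 4 lower in WT (median log2 fold change -0.12), and 4 were called higher and 4 lower in KO (median 0.43). Much of their sum was *Gsn*, which encodes an actin-severing protein, at 405 to 583 CPM in quiescent and 56.9 to 99.7 CPM in activated libraries, whereas *Pdgfra*, a defining receptor of these cells, was at 3.07 to 9.97 and 8.66 to 28.3 CPM. Much of the pericyte and smooth muscle sum in quiescent libraries was *Notch3* and *Rgs5*. *Notch3* was at 367 to 997 CPM in quiescent and 9.35 to 24.7 CPM in activated libraries, and *Rgs5* at 171 to 1066 and 136 to 223 CPM. In quiescent KO replicate 4 *Notch3* made up 997 of 1490 CPM, and in quiescent KO replicate 1 it made up 367 of 1676 CPM. The median log2 fold change of those 8 markers was -1.93 in WT and -2.10 in KO. In bulk RNA, fewer cells of a type and less RNA per cell cannot be told apart.

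The question whether loss of *Cxcr4* altered collagen RNA in resting cells was addressed by comparing KO with WT in the quiescent state. None of the 43 tested chains was called (adjusted p under 0.05 in edgeR's quasi-likelihood test over all 25771 genes, log2 fold change beyond 1 and mean count over 10). None had an unadjusted p under 0.05, beside 448 of the 25771 genes, and DESeq2 also called 0. Over all genes, 0.00776% were called higher and 0.00776% lower. The log2 fold changes of the chains ranged from -0.81 to 1.33 around a median of -0.02, against a median of 0.02 for all genes. The median of the chains was -0.33 without quiescent KO replicate 3 and 0.19 without quiescent KO replicate 1. The intervals were wide for the most abundant chains: 2 SE around the estimate spanned -1.05 to 1.17 for *Col3a1* (estimate 0.06), -1.33 to 1.44 for *Col1a1* (0.06), -0.81 to 0.60 for *Col4a1* (-0.10), -1.07 to 0.81 for *Col5a3* (-0.13), -0.70 to 0.67 for *Col6a1* (-0.02) and -0.97 to 0.80 for *Col15a1* (-0.09), each with an edgeR adjusted p of 1. Differences of 1 on the log2 scale in *Col1a1* and *Col3a1*, in either direction, were thus not detectable with these libraries.

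No chain had all quiescent KO libraries below or all above the quiescent WT libraries, compared with 0.827% and 0.869% of all tested genes. The *Col1a1* value turned from 0.06 to -1.69 without quiescent KO replicate 3, the library with the highest tenocyte sum. With that library and activated WT replicate 1 both left out, 2 chains were called lower in quiescent KO cells, *Col1a2* (log2 fold change -2.19, edgeR adjusted p = 0.00177) and *Col22a1* (-2.32, adjusted p = 0.0347), a collagen of muscle-tendon junctions, where 0.0191% of the 31457 genes tested were called lower. This fit was chosen after the tenocyte values were seen. It kept quiescent WT replicate 1, which had the highest tenocyte sum of its group. The quiescent KO libraries kept were at 227, 163 and 160 CPM of tenocyte markers, against 743, 452, 418 and 201 CPM in quiescent WT. The part of tenocyte RNA in these calls was not tested.

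In activated cells no chain was called between KO and WT by edgeR. An unadjusted p under 0.05 was found for 8 of 43 chains, beside 2158 of 25771 genes. DESeq2 called 1 chain lower (*Col16a1*), beside 0.187% of all genes. Among all genes 0.031% were called higher and 0.0194% lower. The median log2 fold change of the chains was -0.33, against 0 for all genes, but its sign depended on 1 library: without activated WT replicate 1 the median was 0.25, with 32 chains above 0 and 10 below. The lowest adjusted p belonged to *Col16a1*, a FACIT chain found near fibrils and basement membranes. It was at 9.15 and 1.75 CPM in WT and at 0 and 0.913 CPM in KO libraries (log2 fold change -3.64, SE 0.87, edgeR adjusted p = 0.137), and it was called without activated WT replicate 2 (-4.31, adjusted p = 0.00561), a fit that called 0.581% of all genes lower. *Col12a1*, a FACIT chain of tendon and fascia, was at 30.9 and 11.4 CPM in WT and at 9.5 and 9.81 CPM in KO libraries (-1.18, SE 0.49, edgeR adjusted p = 0.521). The log2 fold change was -1.05 (SE 1.00, edgeR adjusted p = 0.888) for *Col1a1* and 0.97 (SE 0.81, adjusted p = 0.848) for *Col3a1*.

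Of the 43 tested chains, 6 had both activated KO libraries below both activated WT libraries (*Col2a1*, *Col8a1*, *Col12a1*, *Col16a1*, *Col22a1* and *Col26a1*), and 6 had them above (*Col3a1*, *Col4a3*, *Col6a6*, *Col23a1*, *Col24a1* and *Col28a1*). Among all genes these orders were found in 9.5% and 15.2%. With 2 libraries a group, an exact permutation test cannot give a p below 0.333. The difference of the KO effect between the states was called for no chain by edgeR (0% of all genes higher and 0% lower). It had an unadjusted p under 0.05 for 6 of 43 chains, beside 1699 of 25771 genes. DESeq2 called 1 chain lower, *Col16a1*, beside 0.0601% of all genes. For *Col16a1* this difference was -3.85 on the log2 scale (edgeR adjusted p = 0.317).

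Activation was accompanied by lower collagen RNA across most classes. In WT cells 22 of the 43 tested chains fell and none rose, beside 16.5% of all genes called lower and 9.65% called higher. Of 43 log2 fold changes, 40 were negative. That none rose depended on the fit. Without the filter on low counts and with DESeq2, 1 chain was called higher in WT, beside 2520 and 2741 of 46597 genes. Without quiescent WT replicate 2, 1 chain was also called higher, beside 2481 of 25801 genes. Each time the chain was *Col13a1*, at 1.99 in the main fit (SE 0.77, edgeR adjusted p = 0.0587). *Col13a1* was called in 4 of 12 WT fits. It was at 0.438 and 11.9 CPM in the activated WT libraries. In KO cells 25 chains fell and none rose, beside 18.5% of all genes lower and 11.1% higher, and 42 of 43 were negative. The median log2 fold change of the chains was -1.74 in WT and -2.10 in KO, against -0.92 and -0.96 for all genes. With chains at 0 counts set at their bounds it was -1.57 in WT and -2.10 in KO. The gap to all genes depended on the fit. Without the filter on low counts, the edgeR medians were -1.81 for the chains against -1.93 for all genes in WT and -2.09 against -1.84 in KO, whereas the DESeq2 medians were -1.79 against -0.68 in WT and -2.04 against -0.70 in KO. Sex, culture and depth changed together with state, so they cannot be told apart in these values.

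**Figure D3:**
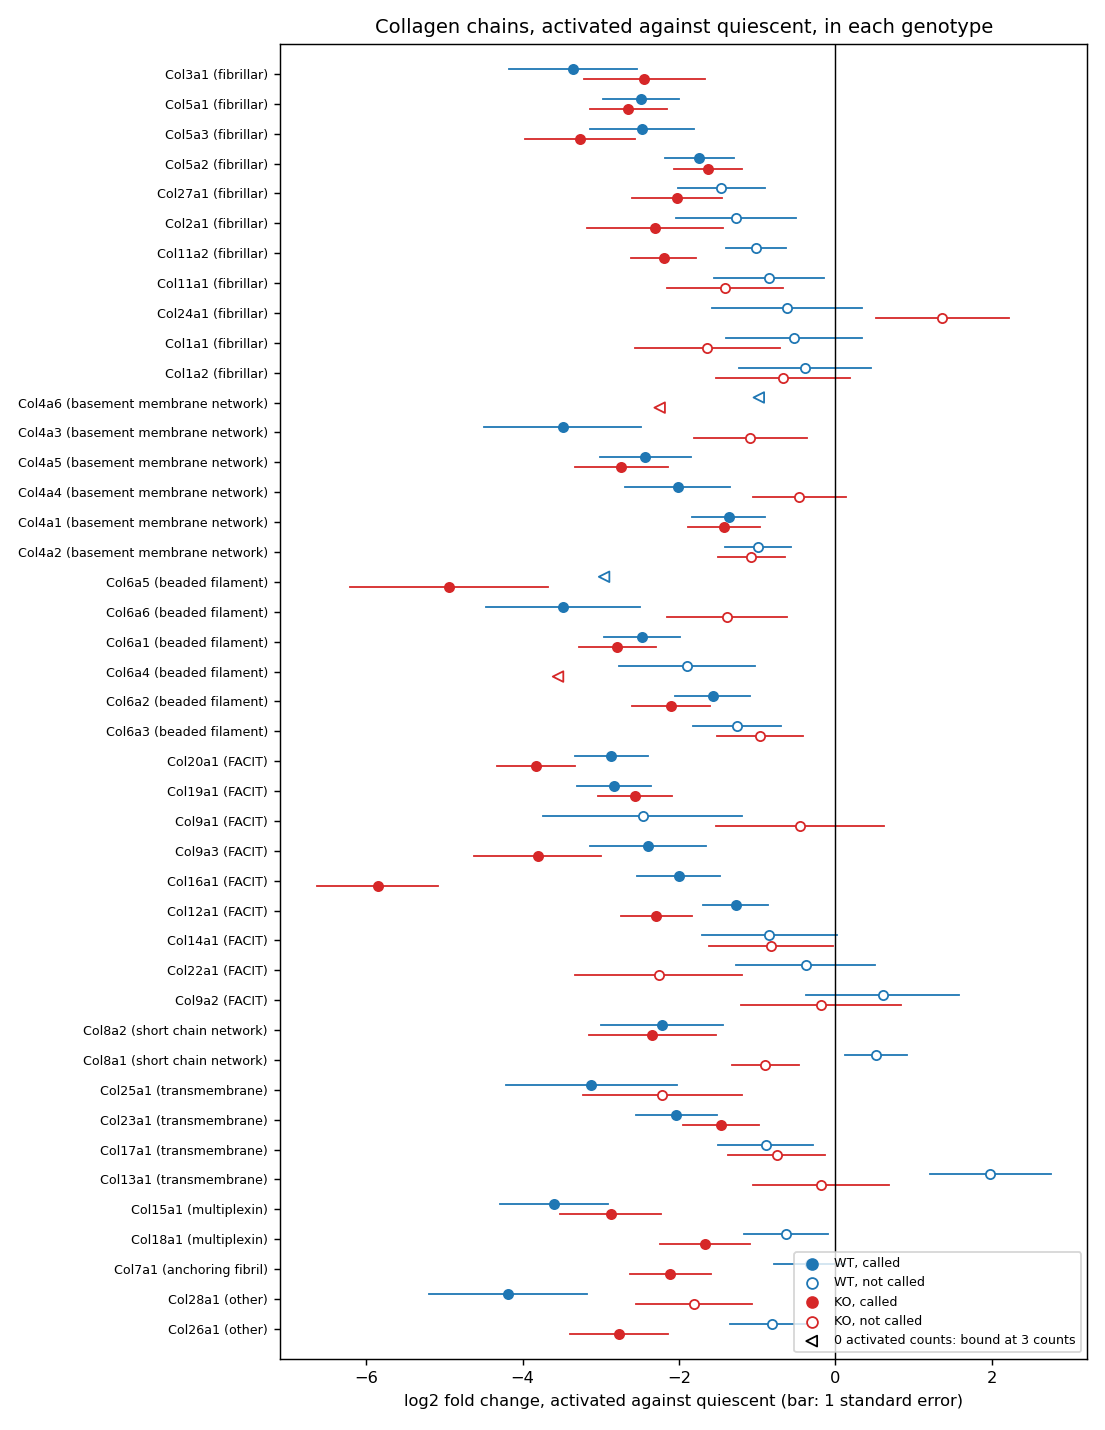
Change with activation of the 43 tested collagen chains in WT and KO cells. The horizontal axis is the log2 fold change of activated against quiescent cells, points are edgeR estimates with bars of 1 SE, filled points were called, and arrowheads mark bounds for chains with 0 activated counts. No called chain lies to the right of 0.

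Both genotypes shared 17 of these calls, which is 77.3% of the WT list and 68% of the KO list, 30 chains were called in at least 1 genotype, and 13 were called in neither. The 5 chains called in WT alone were *Col4a3*, *Col4a4*, *Col6a6*, *Col25a1* and *Col28a1*, and the 8 called in KO alone were *Col2a1*, *Col4a6*, *Col6a4*, *Col7a1*, *Col11a2*, *Col18a1*, *Col26a1* and *Col27a1*. None of these differences between genotypes passed the test of the difference itself. Every activated library was below every quiescent library for 19 of 43 chains, compared with 22.6% of all genes. For none was every activated library above, compared with 12.2% of all genes. The calls rest on 2 activated libraries a group, and the counts that follow are of calls in either direction. Without activated WT replicate 2 the WT count was 10, and without activated KO replicate 1 the KO count was 16. Over 12 fits a genotype, 6 chains were called each time in WT and 14 in KO, and 5 of them (*Col5a1*, *Col6a1*, *Col15a1*, *Col19a1* and *Col20a1*) in both.

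In the fibrillar class 4 of 11 chains fell in WT and 7 of 11 in KO. *Col3a1* fell from 614 ± 171 CPM (SD, n = 4) to 59.6 ± 12.5 CPM (SD, n = 2) in WT, 10.2-fold lower (log2 fold change -3.36, SE 0.82, edgeR adjusted p = 0.00415). In KO it fell from 638 ± 578 to 117 ± 23.3 CPM, 5.44-fold lower (-2.44, adjusted p = 0.0202), and this call was lost without quiescent KO replicate 3 (-1.88, adjusted p = 0.0532), activated KO replicate 1 (-2.28, adjusted p = 0.119) or activated KO replicate 2 (-2.66, adjusted p = 0.0686).

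Type V collagen moved in the same direction. *Col5a1* was 5.59-fold lower in WT (133 ± 20.1 to 23.1 ± 11.7 CPM, log2 fold change -2.48, SE 0.49, adjusted p = 0.000608) and 6.27-fold lower in KO (-2.65, SE 0.49, adjusted p = 0.000336). *Col5a3* was 5.55-fold lower in WT (-2.47, SE 0.66, adjusted p = 0.00807) and 9.63-fold lower in KO (-3.27, SE 0.70, adjusted p = 0.00127), the WT call being lost without activated WT replicate 2 (-1.79, adjusted p = 0.109). *Col5a2*, which completes the common type V trimer, was at 92.9, 112, 124 and 139 CPM in quiescent WT, 44.8, 51.8, 128 and 151 CPM in quiescent KO, 43.8 and 25.4 CPM in activated WT and 23.9 and 37 CPM in activated KO. Its log2 fold changes were -1.74 in WT (SE 0.44, adjusted p = 0.00528) and -1.63 in KO (SE 0.44, adjusted p = 0.00741), and each call was lost without 1 activated library (-1.36 without activated WT replicate 2 and -1.36 without activated KO replicate 1).

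Type I collagen did not pass the test. *Col1a1* had 465 ± 170 CPM (SD, n = 4) in quiescent and 321 ± 335 CPM (SD, n = 2) in activated WT cells (log2 fold change -0.53, SE 0.87, adjusted p = 0.644), and 484 ± 686 against 156 ± 95.6 CPM in KO (-1.63, SE 0.92, adjusted p = 0.171). *Col1a2* was at -0.38 (SE 0.84, adjusted p = 0.734) in WT and -0.67 (SE 0.85, adjusted p = 0.541) in KO. The sign for these chains depended on single libraries. Without activated WT replicate 2, *Col1a1* in WT was at 0.32 and *Col1a2* at 0.20, and without activated WT replicate 1, the one with the higher tenocyte sum, they were at -2.38 and -1.16. With activated WT replicate 1 and quiescent KO replicate 3 both left out, *Col1a1* in WT passed the test (-2.42, adjusted p = 0.00769). In KO cells, without quiescent KO replicate 3, *Col1a1* was at 0.13 and *Col1a2* was called higher after culture (1.46, adjusted p = 0.017).

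Of the basement membrane chains 4 of 6 fell in WT and 3 of 6 in KO. *Col4a1* was 2.57-fold lower in WT (412 ± 115 to 160 ± 59 CPM, log2 fold change -1.36, SE 0.46, adjusted p = 0.0321) and 2.68-fold lower in KO (-1.42, adjusted p = 0.024). The WT call was lost without activated WT replicate 2 (-0.97, adjusted p = 0.285), quiescent WT replicate 1 (-1.30, adjusted p = 0.062) or quiescent WT replicate 2 (-1.18, adjusted p = 0.0787). The KO call was lost without quiescent KO replicate 3 (-0.95, adjusted p = 0.0793), activated KO replicate 1 (-1.36, adjusted p = 0.141) or activated KO replicate 2 (adjusted p = 0.0971). *Col4a2* had log2 fold changes of -0.98 in WT (SE 0.42, adjusted p = 0.0855) and -1.07 in KO (SE 0.43, adjusted p = 0.0581) and was called in neither, though it passed in KO without quiescent KO replicate 1 (-1.24, adjusted p = 0.0305) or replicate 2 (-1.27, adjusted p = 0.0285).

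The rarer type IV chains were near the limit of the activated libraries. *Col4a3*, a chain of kidney and lung basement membranes, was at 2.98, 4.4, 2.11 and 3.47 CPM in quiescent WT, 3.6, 3.28, 4.28 and 2.12 CPM in quiescent KO, 0 and 0.876 CPM in activated WT and 1.28 and 1.83 CPM in activated KO, with every activated value under every quiescent one. It was called in WT (-3.49, SE 1.01, adjusted p = 0.013), but not without activated WT replicate 1 (-1.80, adjusted p = 0.338), while without activated WT replicate 2 no activated WT count was left, and its value in KO was -1.09 (adjusted p = 0.238). *Col4a6* had 0 counts in all 4 activated libraries, which puts it at least 1.97-fold lower in WT and at least 4.75-fold lower in KO at a floor of 3 counts over the group.

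Among the beaded filament chains 4 of 6 fell in each genotype. *Col6a1* was 5.57-fold lower in WT (283 ± 43.9 to 50.2 ± 23.9 CPM, log2 fold change -2.48, SE 0.49, adjusted p = 0.000625) and 6.91-fold lower in KO (-2.79, SE 0.50, adjusted p = 0.000225). *Col6a2* was 2.96-fold lower in WT (-1.57, SE 0.48, adjusted p = 0.0181; -1.04 and adjusted p = 0.24 without activated WT replicate 2) and 4.29-fold lower in KO (-2.10, SE 0.50, adjusted p = 0.00281). *Col6a3*, the large chain that completes the type VI trimer, had -1.25 in WT (adjusted p = 0.0985) and -0.96 in KO (adjusted p = 0.179) and was called in neither.

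*Col6a4*, *Col6a5* and *Col6a6*, neighbours on chromosome 9 that encode alternatives to the large *Col6a3* chain, were low throughout. *Col6a5* was at 2.87, 3.26, 1.8 and 3.42 CPM in quiescent WT, 2.35, 3.01, 1.2 and 9.44 CPM in quiescent KO and 0 in all activated libraries but 1 (0.257 CPM in activated KO replicate 1). In WT, where 213 quiescent counts stood against 0, it was at least 7.77-fold lower (adjusted p = 0.00466; 0.0908 without activated WT replicate 1), and in KO its log2 fold change was -4.94 (SE 1.27, adjusted p = 0.00561; -3.90 and adjusted p = 0.0804 without activated KO replicate 2). Without activated KO replicate 1 no activated KO count of *Col6a5* was left. *Col6a6* was at 8.41, 7.38, 9.43 and 4.43 CPM in quiescent WT, 0.939, 6.42, 13.3 and 13.1 CPM in quiescent KO, 0.98 and 0 CPM in activated WT and 2.31 and 4.11 CPM in activated KO. It was called in WT (-3.48, SE 0.98, adjusted p = 0.0113; 0.0801 without activated WT replicate 2), and in KO it was at -1.39 (adjusted p = 0.163; -1.75 and adjusted p = 0.0252 without quiescent KO replicate 1). Without activated WT replicate 1 no activated WT count of *Col6a6* was left. *Col6a4* had no counts in activated KO and was at least 11.7-fold lower there (adjusted p = 0.00117).

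In the FACIT class 5 of 9 chains fell in each genotype. *Col19a1*, a FACIT chain of muscle and nerve basement membrane zones, was at 31.1, 29.1, 40.8 and 51.9 CPM in quiescent WT, 26.9, 35.9, 32.7 and 41.3 CPM in quiescent KO, 7.84 and 1.75 CPM in activated WT and 8.73 and 2.97 CPM in activated KO (log2 fold changes -2.83, SE 0.48, adjusted p = 0.000146 in WT and -2.56, SE 0.47, adjusted p = 0.000311 in KO). The quiescent spread of *Col19a1* was narrow beside that of the fibrillar chains. *Col20a1* was at 51.8, 46.3, 32.2 and 22.7 CPM in quiescent WT, 48.8, 29.3, 65.5 and 28.3 CPM in quiescent KO, 6.7 and 3.07 CPM in activated WT and 3.08 and 2.97 CPM in activated KO (-2.87, SE 0.47, adjusted p = 0.000102 and -3.83, SE 0.50, adjusted p = 8.94e-06). Both chains were called in every fit in both genotypes and were named after their values were seen.

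*Col16a1* was at 29.4, 24.6, 18.8 and 24.5 CPM in quiescent WT and 14.5, 26.3, 43.2 and 28.9 CPM in quiescent KO, and fell in WT (4.01-fold lower, SE 0.53 on the log2 scale, adjusted p = 0.00734; -1.35 and adjusted p = 0.111 without activated WT replicate 2, -3.71 without activated WT replicate 1) and in KO (-5.86, SE 0.77, adjusted p = 9.47e-06), where the only activated counts were 4 in replicate 2. *Col12a1* was at 70.1, 51.5, 43.4 and 46.1 CPM in quiescent WT and 24.8, 35.7, 76 and 52.5 CPM in quiescent KO, and fell in WT (-1.27, SE 0.42, adjusted p = 0.0267; -0.71 and adjusted p = 0.353 without activated WT replicate 2, -1.09 and adjusted p = 0.0667 without quiescent WT replicate 1, -2.13 without activated WT replicate 1) and in KO (-2.29, SE 0.45, adjusted p = 0.000609).

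The remaining classes were small. Of the multiplexins, *Col15a1* was 12.1-fold lower in WT (142 ± 48.7 to 12 ± 4.06 CPM, log2 fold change -3.60, SE 0.69, adjusted p = 0.00052) and 7.33-fold lower in KO (-2.87, SE 0.65, adjusted p = 0.00197), and *Col18a1*, the source of endostatin, was called in KO only. *Col28a1*, a chain of peripheral nerve, was at 4.12, 7.8, 3.25 and 3.56 CPM in quiescent WT, 6.73, 5.53, 4.57 and 1.51 CPM in quiescent KO, 0.163 and 0.438 CPM in activated WT and 0.514 and 2.05 CPM in activated KO. It was called in WT (-4.19, SE 1.01, adjusted p = 0.00362), but not without activated WT replicate 1 (-3.31, adjusted p = 0.107), and in KO it was at -1.81 (adjusted p = 0.0669; -2.09 and adjusted p = 0.0238 without quiescent KO replicate 4). Of the transmembrane chains 2 of 4 fell in WT and 1 of 4 in KO, and of the 2 tested short chain network members 1 fell in each genotype.

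Not all chains that assemble with each other changed in equal proportion. The log2 ratio of *Col6a1* to *Col6a2* was 0.72, 0.74, 0.86 and 1.00 in quiescent WT and 0.89, 0.64, 0.76 and 1.19 in quiescent KO, against -0.16 and 0.06 in activated WT and 0.23 and 0.13 in activated KO. That of *Col5a1* to *Col5a2* was 0.53, 0.27, -0.23 and 0.16 in quiescent WT and 0.42, 0.28, 0.52 and 0.47 in quiescent KO, against -0.48 and -0.76 in activated WT and -0.41 and -0.68 in activated KO. That of *Col6a3* to *Col6a1* was -2.11, -2.36, -2.39 and -3.15 in quiescent WT and -1.74, -2.86, -2.35 and -4.06 in quiescent KO, against -1.23 and -1.23 in activated WT and -1.42 and -0.45 in activated KO. In these 3 ratios no activated library overlapped the quiescent libraries.

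**Figure D4:**
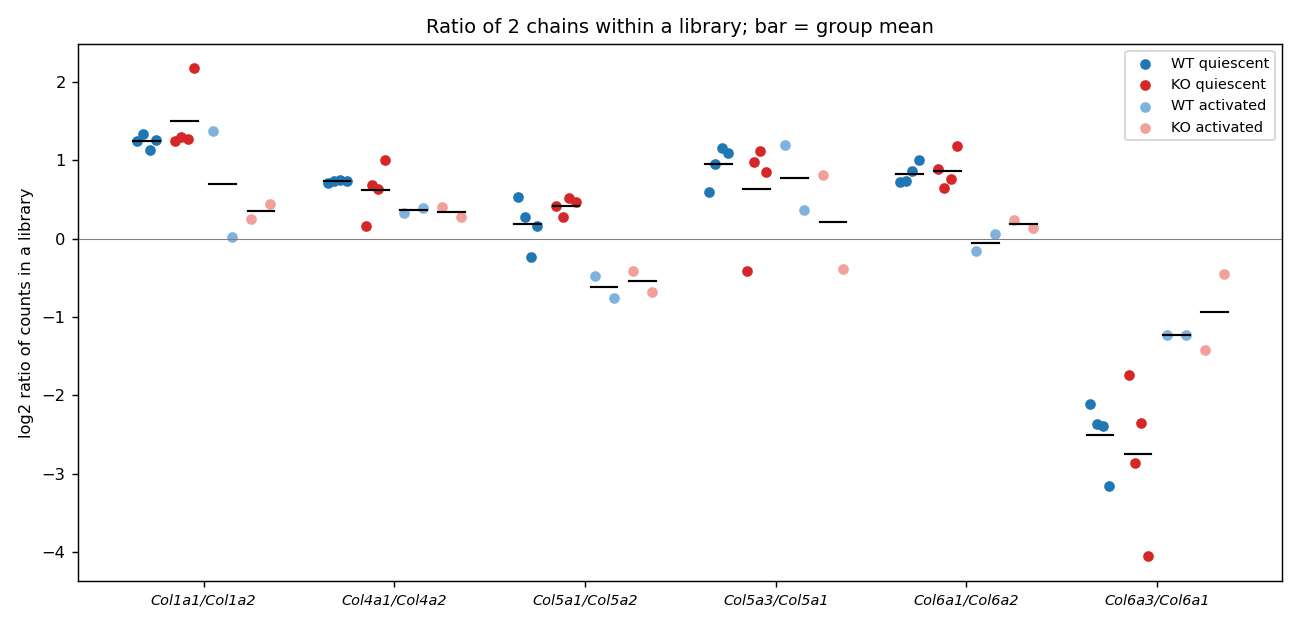
Log2 ratio of partner chains in each library. Points are libraries, colours give the groups, and the vertical axis is the log2 ratio of counts with 0.5 added to each. The activated libraries lie below the quiescent libraries for *Col6a1*/*Col6a2* and *Col5a1*/*Col5a2* and above them for *Col6a3*/*Col6a1*.

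The mean ratio differed between the states by -0.78 for *Col6a1* to *Col6a2*, by -0.88 for *Col5a1* to *Col5a2* and by 1.55 for *Col6a3* to *Col6a1* (two-sided exact permutation test of 4 activated against 8 quiescent libraries, p = 0.00404, adjusted p = 0.0189 over 14 tests for each). That p is the smallest these library numbers allow. With any of 3 activated libraries left out (activated WT replicate 2 or either activated KO library) the differences kept their direction with adjusted p = 0.0566. With 3 against 8 libraries the exact permutation test allows no p below 0.0121. The rise in adjusted p therefore does not by itself show dependence on 1 library. The ratio of *Col5a3* to *Col5a1* differed by -0.30 (exact permutation p = 0.368, adjusted p = 0.578). The ratio of *Col1a1* to *Col1a2* differed by -0.85 (exact permutation p = 0.0323, adjusted p = 0.0905) and that of *Col4a1* to *Col4a2* by -0.33 (exact permutation p = 0.0202, adjusted p = 0.0707). None of these passed the threshold. The *Col1a1* to *Col1a2* ratio passed it without activated WT replicate 1 (-1.13, adjusted p = 0.0424), and that of *Col4a1* to *Col4a2* without quiescent KO replicate 1 (-0.40, adjusted p = 0.0212).

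In quiescent cells the ratios of KO and WT libraries were not told apart, with adjusted p of 0.4 to 0.8 by exact permutation, where 4 against 4 libraries allow no p below 0.0286. The ratio of *Col4a1* to *Col4a2* was nearly constant in quiescent WT cells, at 0.71, 0.74, 0.74 and 0.73, while the quiescent KO libraries were at 0.17, 0.69, 0.64 and 1.00. Per kilobase of exon, the median quiescent ratio was 1.46 for *Col4a1* to *Col4a2*, 3.33 for *Col6a1* to *Col6a2*, 1.44 for *Col5a1* to *Col5a2* and 4.55 for *Col1a1* to *Col1a2*, with the exon length of *Col1a2* uncertain as above.

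Genes that modify, fold, cleave and bind collagens were counted beside the chains. None of the 57 genes of these 4 lists was called between KO and WT in either state. Of all genes, 0.00776% were called in each direction in quiescent cells, and 0.031% higher and 0.0194% lower in activated cells. With activation, 9.65% of all genes were called higher and 16.5% lower in WT, and 11.1% and 18.5% in KO. Of 15 prolyl and lysyl modification genes, 1 rose and 4 fell with activation in WT, and none rose and 3 fell in KO (median log2 fold change -0.41 and -0.77). *P4ha2*, a subunit of the prolyl 4-hydroxylase that stabilises the helix, fell in WT (57 ± 11.6 to 9.99 ± 0.731 CPM, log2 fold change -2.52, SE 0.37, adjusted p = 3.7e-05), as did the lysyl hydroxylase *Plod1* (-1.81, adjusted p = 0.000518) and the collagen galactosyltransferase *Colgalt2* (-2.78, adjusted p = 0.0132). Of 15 folding and export genes, none rose and 5 fell in WT, and 1 rose and 6 fell in KO (median -0.36 and -0.49). The endoplasmic reticulum chaperone *Hspa5* fell in WT from 4442 ± 631 to 791 ± 273 CPM (-2.49, SE 0.40, adjusted p = 7.95e-05) and *Fkbp7*, a prolyl isomerase of that compartment, also (-2.61, adjusted p = 0.00014). The medians of these lists lay above those of all genes.

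The other 2 lists stand beside the same shares of all genes. Of 15 propeptide cleavage and cross-linking genes, 1 rose and 7 fell in WT, and 1 rose and 10 fell in KO (median -1.02 and -1.86). *Bmp1*, which removes the C-propeptide of fibrillar chains, fell from 266 ± 21.5 to 43.3 ± 21 CPM in WT (-2.60, SE 0.42, adjusted p = 8.9e-05), whereas the N-propeptidase *Adamts14* rose from 10.7 ± 3.81 to 71.7 ± 4.84 CPM (2.74, SE 0.40, adjusted p = 3.04e-05). Of 12 receptors, 1 rose and 5 fell in WT, and none rose and 5 fell in KO (median -1.30 and -1.37). *Calcr*, the calcitonin receptor through which type V collagen signals and also a listed satellite cell marker, fell from 95.2 ± 9.74 to 2.13 ± 0.703 CPM in WT (-5.58, SE 0.58, adjusted p = 6.76e-07) and also in KO (-6.33, adjusted p = 3.75e-07), and *Itga1*, the alpha chain of a type IV collagen integrin, fell in WT (-1.89, adjusted p = 0.0151). *Itga2*, its counterpart for fibrillar collagens, rose in WT (1.83, adjusted p = 0.0382) from 3.59 ± 1.99 to 12.2 ± 13 CPM and was at 0.21 in KO (adjusted p = 0.827), and the difference between the genotypes was not called.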

How the data were processed

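The authors isolated total RNA of sorted satellite cells and had it made into libraries, of which 12 were used here. The authors trimmed reads with Trim Galore 0.6.0, mapped them to GRCm38.p6/mm10 with STAR 2.7.2a and deposited raw counts per gene of GENCODE M25, made with Rsubread. The authors also deposited FPKM values, 1 per gene and group, which were used only to check the levels per kilobase. Counted reads per library and the precision they give are stated with the results. How reads shared by several genes were counted is not given in the sources used here.

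Members and lists were chosen with earlier results of these data known. Counts were filtered with filterByExpr, scaled by TMM and fitted in edgeR 4.0.16 (R 4.3.3) with a quasi-likelihood model of 4 group means over 12 libraries. P-values were adjusted by Benjamini-Hochberg over 25771 genes, and every adjusted p for a gene is from this test unless another is named. A gene was called at adjusted p under 0.05, log2 fold change beyond 1 and mean normalised count over 10, as in the study. DESeq2 1.42.0, its size factors, no filter, only the compared groups, a replicate block and each library left out were alternatives. Nothing in the labels ties a library to its own animal, so the spread between libraries may be partly technical. None of 66 library pairs held identical counts.

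Values per library were given for the 10 chains with the highest mean level, for any chain called between KO and WT, and for the 5 highest and 5 lowest changes called with activation in WT. Other chains were named after their values were seen. Ratios of partner chains used counts with 0.5 added, required 10 counts of each chain in every library, and were compared by exact permutation. Gene coordinates, exon lengths and coding sequences came from GENCODE M21 on GRCm38, and promoters from RefSeq. *Col1a1*, *Col2a1*, *Col4a3*, *Col5a2*, *Col9a3*, *Col12a1*, *Col14a1*, *Col22a1* and *Col26a1* had no promoter entry.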

Additional observations from a re-analysis of the deposited data

Results flagged for a closer look

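Of 53 values checked in groups of 4 libraries, 3 had 1 library whose gap to its nearest neighbour took more of the group's range than Dixon's critical value for 4 libraries, and chance flags about 1 in 20 groups. *Col1a1* was at 1507 CPM in quiescent KO replicate 3, against 58.6, 124 and 248 CPM in the other libraries of that group (gap 0.869 of the range). *Col1a2* was at 625 CPM in the same library, against 24.7, 50.5 and 55 CPM (gap 0.950 of the range). The sum of 6 tenocyte markers was 892 CPM in that library and 227, 163 and 160 CPM in the others, and its part in the type I collagen values was not tested. The log2 ratio of *Col1a1* to *Col1a2* was 2.18 in quiescent KO replicate 4, against 1.25, 1.30 and 1.27 in the other quiescent KO libraries and 1.13 to 1.33 in quiescent WT (gap 0.944 of the range).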

How the results depend on the processing

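Of the values for activated against quiescent cells, 183 of 204 under the alternatives kept direction and side of the threshold in WT (17 were no longer past it, 2 passed it and 2 reversed), and 177 of 204 did in KO (13, 9 and 5). Against 22 and 25 chains called, the alternatives that kept all libraries gave 22 to 26 in WT and 22 to 27 in KO. The WT counts without the filter, with DESeq2 and without quiescent WT replicate 2 each held 1 chain called higher. Leaving out 1 library gave 10 to 23 in WT and 16 to 26 in KO. For KO against WT in quiescent cells, leaving out 1 library called 0 to 0 chains. Leaving out quiescent KO replicate 3 and activated WT replicate 1 together gave -2.19 for *Col1a2* and -2.32 for *Col22a1*, the chains named above for that fit. Each of these 2 libraries had the highest tenocyte sum of its group, but quiescent WT replicate 1, at 743 CPM, was kept. In activated cells the count was 2 without the filter (*Col16a1* and *Col22a1*), 1 with DESeq2 and 0 to 1 with 1 library left out, and the difference of the KO effect was called for 1 chain without the filter, 1 with DESeq2 and 0 to 1 with 1 library left out. The chain ratios passing the threshold numbered 0 to 4 with 1 library left out.

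With quiescent KO replicate 3 and activated WT replicate 1 both left out, several log2 fold changes reversed. In quiescent KO against WT they were -1.70 for *Col1a1* and -0.50 for *Col3a1*. In activated KO against WT, *Col1a1* was at 0.86. With activation in KO, *Col1a1* was at 0.15 and *Col1a2* at 1.49. With the replicate block the log2 fold change was -0.93 for *Col1a1* and -0.63 for *Col3a1* in quiescent KO against WT. It was 0.78 for *Col1a2* with activation in KO. Without the filter, *Col6a1* was at 0.019 in quiescent KO against WT. The cause was not tested.

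With 1 library left out, quiescent KO against WT ranged from -1.69 to 0.42 for *Col1a1*, -0.50 to 0.44 for *Col3a1*, -0.57 to 0.15 for *Col4a1*, -0.50 to 0.21 for *Col5a3*, -0.49 to 0.24 for *Col6a1* and -0.54 to 0.24 for *Col15a1*, and *Col1a1* in activated cells from -1.93 to 0.78. With activation, *Col1a1* ranged from -2.38 to 0.32 in WT and -2.46 to 0.13 in KO, and *Col1a2* from -1.16 to 0.20 and -1.36 to 1.46. The KO minus WT ratios ranged from -0.23 to 0.045 (*Col4a1* to *Col4a2*), -0.48 to 0.034 (*Col5a3* to *Col5a1*), -0.069 to 0.11 (*Col6a1* to *Col6a2*) and -0.59 to 0.19 (*Col6a3* to *Col6a1*).

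The replicate numbers were not taken to pair the libraries, since deviations of same-numbered quiescent WT and KO libraries correlated at 0.24, 0.16, -0.27 and 0.59 and those of activated libraries at -0.07. With the replicate block 24 chains were called with activation in WT and 22 in KO, and 0 between genotypes in either state.

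Depth limits the low chains: 3 counts over an activated group stand for 0.357 CPM in WT and 0.362 CPM in KO, so chains of a few CPM could not be followed far below their quiescent level. These floors cover counting error only. Groups of 4 and 2 libraries limit the KO comparisons, and the activated state rests on 4 libraries of another sex than the quiescent ones.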
